A study of Mus musculus with 7 samples.

Results

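The inflammasome and interleukin 1 genes Nlrp3, Aim2, Naip5, Pycard, Casp1, Casp4, Gsdmd, Il1a, Il1b and Il18 were taken from the deposited gene table by symbol. All 10 were found among its 16476 genes, and all 10 were among the 12963 genes abundant enough to be tested. RNA came from cells washed out of the lungs (bronchoalveolar lavage, BAL) of C57BL/6 mice 3 days after lipopolysaccharide, the outer membrane lipid of Gram-negative bacteria, had been put into the trachea. The Ntn1 KO group comprised 3 libraries with the genotype Netrin1loxp/loxp LysM Cre, in which Ntn1 is floxed, the gene that codes for netrin-1, a secreted cue for migrating cells and axons. The LysM Cre group comprised 4 libraries with the same Cre and no floxed allele named. By the labels both groups carried Cre, both received lipopolysaccharide, and in both neutrophils were removed from the lavage with antibodies before RNA was extracted. LysM Cre is active in myeloid cells, so lymphocytes in the lavage keep the floxed gene. The sources used here give no age, sex or genetic background of the alleles. Nothing in the labels ties a library to a separate animal, and p-values therefore speak only to the variation among these 7 libraries, part of which may be technical.

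Inflammasomes are protein complexes that assemble in the cytosol of macrophages and neutrophils when a sensor meets microbial or damage signals. NLRP3 answers to potassium efflux and many other disturbances, AIM2 to double-stranded DNA, and NAIP5 to bacterial flagellin, which it passes on to NLRC4. The adaptor ASC, encoded by Pycard, links sensors to caspase-1, which cuts the precursors of interleukin 1 beta and interleukin 18 and opens the pore protein gasdermin D. Caspase-11, encoded by Casp4 in the mouse, binds lipopolysaccharide in the cytosol and cuts gasdermin D without a sensor of this kind. In alveolar macrophages the Il1b and Nlrp3 transcripts are known to be induced by lipopolysaccharide, whereas Il18 is made without stimulation. Much of the regulation is by cleavage of proteins, which transcript counts do not show.

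Of the 10 genes, Naip5 fell in Ntn1 KO cells, to 0.751 times the LysM Cre level, and none rose. Values are normalized counts, that is, reads divided by a size factor of the library, and each fold change was computed from log2(normalized count + 1). In the limma fit across all genes, 21.7% of the genes tested passed an adjusted p of 0.05, 10.4% higher and 11.3% lower in Ntn1 KO cells, so 1 of 10 was no larger a share than over all genes. The log2 fold change was above 0 for the other 9 genes, and for 51.9% of all genes tested. The median over the 10 was 0.13, against 0.01 over all genes tested. Of the 10 genes, 6 were lowest in LysM Cre library 3. The sign turned for Nlrp3, Pycard and Gsdmd in a fit that left out 1 library. Values of the groups did not overlap for Aim2, Il1b and Naip5, while 33.8% of all tested genes had no overlap, 17.4% higher and 16.3% lower in Ntn1 KO cells. For 7 genes the 95% interval of the fold change lay within 1.5-fold either way, and for Il1a, Il1b and Il18 it reached further. Before adjustment, 3 of the 10 had a limma p under 0.05, namely Aim2, Casp4 and Naip5. On the recovered reads, edgeR's quasi-likelihood test and DESeq2 each called Naip5 and no other of the 10, where they called 22.1% and 23.3% of all genes. No other gene of the 10 passed the threshold under any of the 19 alternative settings. The authors' deposited table also has 1 of the 10 genes under an adjusted p of 0.05, again Naip5, at 6.65e-05.

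**Figure D1:**
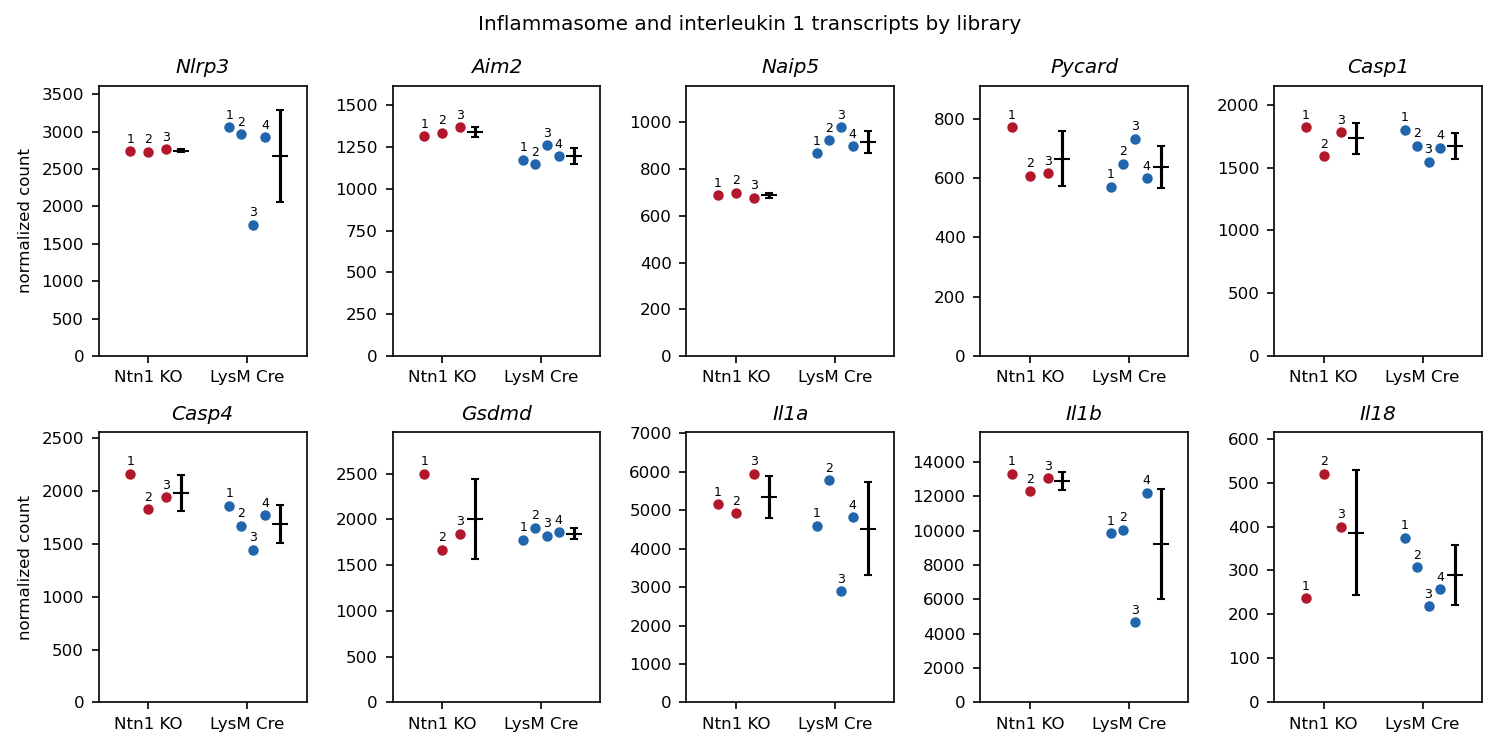
Normalized counts of the 10 genes in each library, with 3 Ntn1 KO libraries left of 4 LysM Cre libraries in each panel; points are libraries, and the bar and whiskers are the group mean and SD. The Naip5 values of Ntn1 KO libraries (677.5 to 699) all lie below those of LysM Cre libraries (868 to 979.7), while for Il1b, Il1a and Nlrp3 LysM Cre library 3 lies far below the rest.

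The libraries held between 9903284 and 13353733 reads each. Ntn1 had 1, 0 and 1 reads in Ntn1 KO libraries, against 1, 4, 9 and 3 reads in LysM Cre libraries, which is too few to check the genotype by transcript. A library with 0 reads allows up to 3, and these limits cover counting error only. Lyz2, the gene whose locus carries the Cre, stood between 909.7 and 1052 normalized counts in Ntn1 KO libraries and at 721 and 770.1 in LysM Cre libraries 3 and 2, but at 76927 and 118781 in LysM Cre libraries 1 and 4. The labels give all 4 the same genotype, and whether the Cre allele of libraries 1 and 4 differs from that of the other 5 libraries was not tested, so shared Cre rests on the labels. Ntn1 KO library 1 stood apart by summed markers of neutrophils (81289, against 27050 and 27457 in Ntn1 KO libraries 2 and 3 and 17536 to 20758 in LysM Cre libraries) and of red cells (136630, against 1254 to 26199.9 in the other 6). Of the neutrophil markers 8 of 15 rose. Natural killer cell markers rose in 8 of 8 cases, with sums of 40724 to 45448 in Ntn1 KO and 8267 to 13500 in LysM Cre libraries. Of 15 markers of monocytes and recruited macrophages 9 fell and 2 rose, with sums of 33867 to 47259 in Ntn1 KO and 52395 to 69948 in LysM Cre libraries. None of the 13 resident alveolar macrophage markers passed the test, and their sums were 77764 to 131975 in Ntn1 KO and 60768 to 100463 in LysM Cre libraries. Chil3 alone made up most of each sum, with 65274 to 105895 in Ntn1 KO and 49994 to 78989.5 in LysM Cre libraries. Epithelial markers rose in 5 of 9 cases, with sums of 729 to 1070.1 in Ntn1 KO and 441 to 654 in LysM Cre libraries. T cell markers rose in 1 of 8 cases, B cell markers in 1 of 3 and dendritic cell markers in 1 of 6, and none of the 6 red cell markers passed. Beside these marker counts, 10.4% of all genes tested rose and 11.3% fell. Across these lists, Slc4a1 was at 0 in at least 1 library and Pax5 had no more than 3 reads in any Ntn1 KO library. A lower value in such a mixture can come from fewer cells of a type or from less RNA per cell, which cannot be told apart here.

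**Figure D2:**
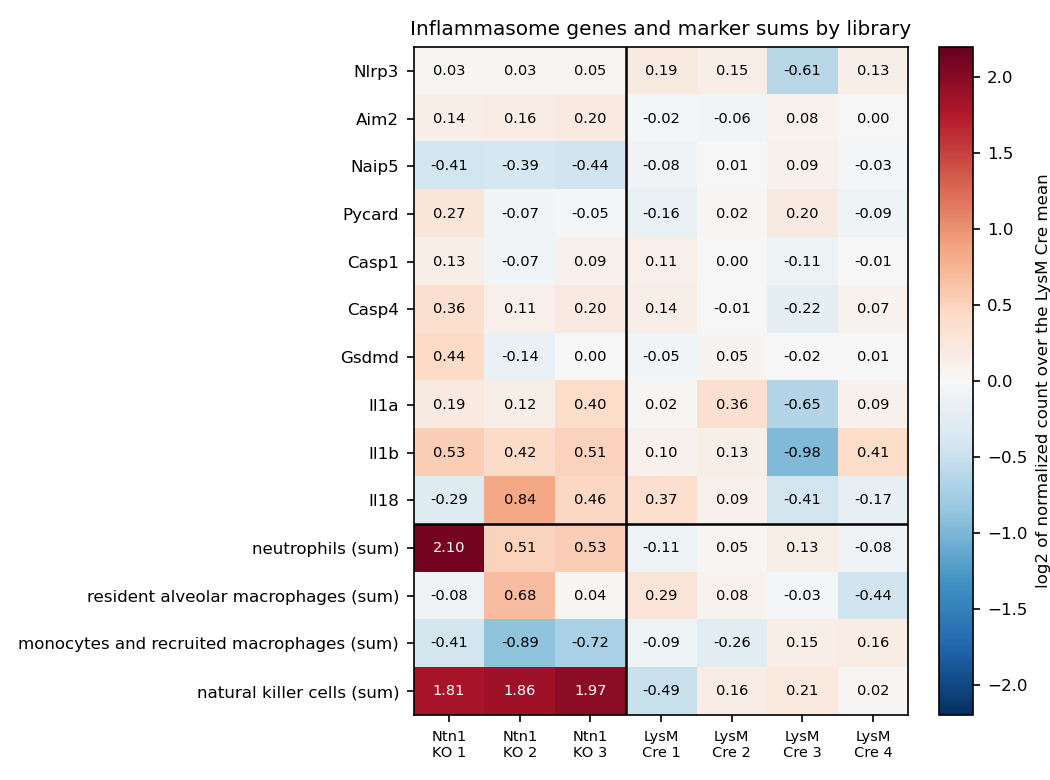
Heat map of the 10 genes and of summed cell type markers in each library, as log2 of the normalized count over the LysM Cre mean; columns are the 3 Ntn1 KO and then the 4 LysM Cre libraries. Naip5 is between -0.44 and -0.39 in all Ntn1 KO libraries, and Il1b, Il1a and Nlrp3 are at -0.98, -0.65 and -0.61 in LysM Cre library 3.

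Naip5 (ENSMUSG00000071203, GRCm38 chromosome 13, 100211739 to 100246323, minus strand) had 688.5, 699 and 677.5 normalized counts in Ntn1 KO libraries, against 868, 924, 979.7 and 898 in LysM Cre libraries. Every Ntn1 KO library was below every LysM Cre library, and the Ntn1 KO libraries differed little among themselves. The mean was 688.3 ± 10.7 (SD, n = 3) in Ntn1 KO and 917.4 ± 47.3 (SD, n = 4) in LysM Cre cells. This was a log2 fold change of -0.41 (SE 0.07, 95% interval -0.56 to -0.26, limma adjusted p = 0.00389). On the recovered reads, edgeR gave an adjusted p of 0.00354 and DESeq2 one of 2.05e-05. With LysM Cre libraries 1 and 4 left out, which have the high Lyz2 values, the log2 fold change was -0.47 (limma adjusted p = 0.0236), and with libraries 2 and 3 left out it was -0.36 (limma adjusted p = 0.0378). The summed markers of monocytes and recruited macrophages were also lower in all Ntn1 KO libraries, and their part in the fall of Naip5 was not tested.

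The mouse genome holds several Naip paralogs side by side on chromosome 13, and all 4 in the table fell. NAIP1 and NAIP2 bind the needle and the inner rod protein of bacterial type III secretion systems, and NAIP6 binds flagellin as NAIP5 does. Naip6 averaged 436 ± 49.3 in Ntn1 KO and 788 ± 90.1 normalized counts in LysM Cre cells (log2 fold change -0.85, SE 0.11, limma adjusted p = 0.00181). Naip1, the least abundant, averaged 23.8 ± 3.11 in Ntn1 KO and 53.5 ± 8.06 in LysM Cre cells (log2 fold change -1.13, SE 0.19, limma adjusted p = 0.00517). Naip2, the most abundant, averaged 3433 ± 241.5 in Ntn1 KO and 4592 ± 402 in LysM Cre cells (log2 fold change -0.42, SE 0.09, limma adjusted p = 0.0123). The fall of Naip2 did not pass without Ntn1 KO library 2 (limma adjusted p = 0.0524), and neither Naip2 (0.0767) nor Naip1 (0.0548) passed without LysM Cre libraries 1 and 4. Summed over the 4 paralogs, the normalized count was 4581 ± 267 in Ntn1 KO and 6350.5 ± 406 in LysM Cre cells. Naip5 made up 15.1% ± 1.09 of that sum in Ntn1 KO and 14.5% ± 1.07 in LysM Cre cells, shares that differ by less than their SD. Nlrc4, the shared partner of the NAIP proteins, averaged 430 ± 57.3 in Ntn1 KO and 500.2 ± 61.4 in LysM Cre cells and did not pass (log2 fold change -0.22, limma adjusted p = 0.246).

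The paralogs are alike in sequence, so reads can be assigned wrongly or dropped among them. Of all runs of 50 bases in the longest Naip5 transcript, 32.3% also occur in the transcript of Naip1, Naip2 or Naip6, and of runs of 100 bases 10.9% do. Naip6 shares the most with Naip5, 22.3% of runs of 50 bases. The sources used here do not say how reads with several matches were counted, so the split among the paralogs is uncertain, while the sum of the 4 rests on it less.

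Genes around Naip5 were also read. Of 22 tested genes within 1000 kb of it, 6 passed the test and all 6 were lower in Ntn1 KO cells. Over all genes, 11.3% were lower. The 6 include the paralogs, which share sequence with Naip5, so this is not a count of neighbours outside the cluster. Apart from Naip1, Naip2 and Naip6 these were CT009518.2, an unprocessed pseudogene between Naip5 and Naip6 (log2 fold change -1.46), Bdp1, a subunit of an RNA polymerase III initiation factor (-0.52, limma adjusted p = 0.0135), and Gtf2h2, a subunit of the general factor TFIIH (-0.34, limma adjusted p = 0.0319). Outside the cluster, Bdp1 and Gtf2h2 were the only genes in this window to pass. Smn1, which lies between Bdp1 and Naip2, had a log2 fold change of -0.10 and did not pass. Among the 10 tested genes nearest to each of the 10 genes, 6 passed around Naip5 and between 0 and 2 around each of the other 9. Over all genes tested 21.7% passed. The 6 around Naip5 are the same genes as above, its paralogs among them. The Naip cluster is known to differ in sequence and copy number between inbred mouse strains. All 7 libraries are labelled C57BL/6.

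**Figure D3:**
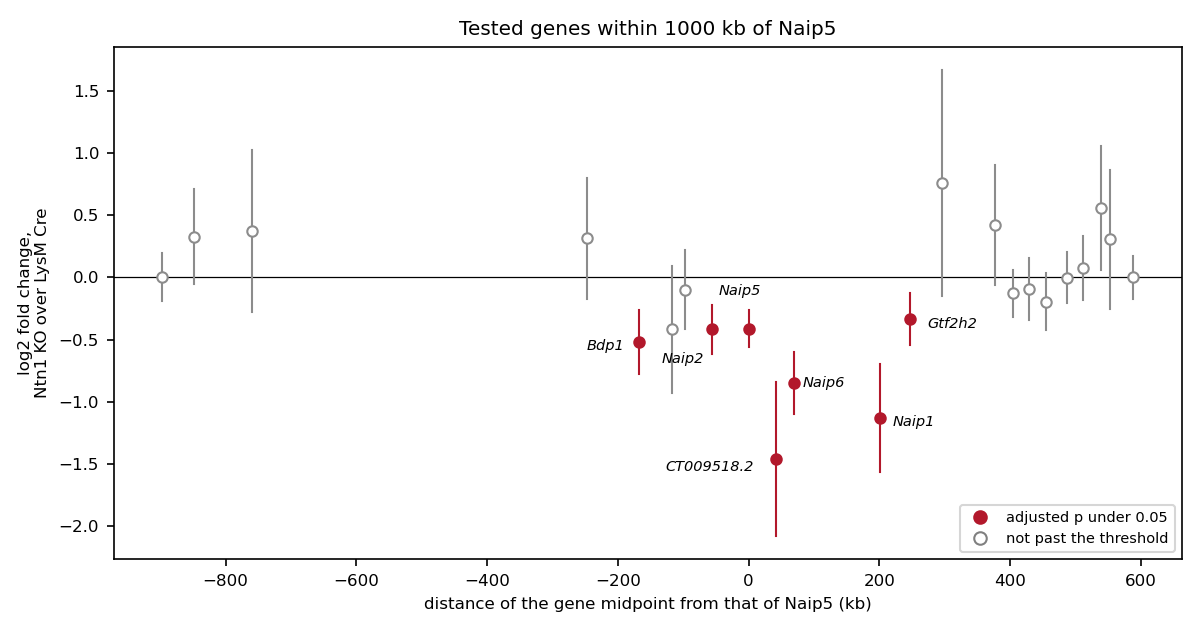
Log2 fold change, Ntn1 KO over LysM Cre, of Naip5 and the tested genes within 1000 kb of it, against the distance between gene midpoints in kb; whiskers are 95% intervals and filled points passed the limma test. The filled points are Naip5 itself, at distance 0, and 6 other genes between -168 and 247 kb, and all lie below a fold change of 0.

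Since the 4 paralogs fell, the 250 bases upstream of each RefSeq transcript start are shown for comparison, from RefSeq on GRCm38.p6, all on the minus strand. They span chr13:100452865-100453114 for Naip1, chr13:100202123-100202372 for Naip2, chr13:100247337-100247586 for Naip5 and chr13:100316617-100316866 for Naip6. Capitals mark words of at least 10 letters that 3 of the 4 windows share on the printed strand.
Naip1: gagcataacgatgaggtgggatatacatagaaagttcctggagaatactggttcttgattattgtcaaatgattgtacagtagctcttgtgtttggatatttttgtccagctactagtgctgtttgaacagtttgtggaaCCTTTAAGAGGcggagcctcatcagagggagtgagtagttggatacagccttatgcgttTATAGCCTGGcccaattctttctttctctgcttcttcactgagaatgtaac
Naip2: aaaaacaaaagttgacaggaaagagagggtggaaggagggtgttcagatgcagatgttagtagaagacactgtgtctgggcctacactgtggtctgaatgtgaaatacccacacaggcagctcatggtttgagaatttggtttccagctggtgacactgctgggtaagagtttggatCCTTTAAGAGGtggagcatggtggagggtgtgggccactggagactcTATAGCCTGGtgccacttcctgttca
Naip5: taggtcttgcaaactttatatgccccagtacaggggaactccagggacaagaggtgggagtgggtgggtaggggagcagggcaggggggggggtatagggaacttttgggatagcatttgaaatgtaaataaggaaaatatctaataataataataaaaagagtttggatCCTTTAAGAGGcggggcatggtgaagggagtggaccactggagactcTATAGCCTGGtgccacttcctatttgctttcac
Naip6: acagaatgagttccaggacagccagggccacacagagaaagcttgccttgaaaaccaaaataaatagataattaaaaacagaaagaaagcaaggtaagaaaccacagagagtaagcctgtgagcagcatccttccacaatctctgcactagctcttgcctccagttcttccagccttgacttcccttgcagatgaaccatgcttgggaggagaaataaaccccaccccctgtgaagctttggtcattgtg
The words CCTTTAAGAGG and TATAGCCTGG stand in this order in Naip1, Naip2 and Naip5, beginning 110 and 51 bases before the start in Naip1, 73 and 26 bases before it in Naip2, and 80 and 33 bases before it in Naip5. Searched on both strands, neither is in the Naip6 window. RefSeq and the GENCODE gene models place the starts differently, by 5 bases for Naip1, 30 for Naip2, 1013 for Naip5 and 1058 for Naip6. The RefSeq start of Naip5 lies upstream of the GENCODE one, whereas that of Naip6 lies downstream, so the Naip6 window is inside the GENCODE gene and may not be its promoter. Of 32536 RefSeq mouse promoter windows, 29 hold CCTTTAAGAGG (0.0891%) and 18 hold TATAGCCTGG (0.0553%). The Naip2 and Naip5 windows are the most alike of the 4, with 56.9% identical positions in a pairwise alignment, against 44.5% for Naip5 and Naip6. These alignments held gaps, over 295 and 310 columns for windows of 250 bases. No unrelated pair is given for comparison, so the shares are not a measure of kinship. The words are a description of these windows, and no factor is assigned to them.

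Nlrp3 (ENSMUSG00000032691, chromosome 11, 59541568 to 59566956) had 2738, 2731 and 2765 normalized counts in Ntn1 KO libraries, against 3058, 2962, 1754 and 2920.5 in LysM Cre libraries. The Ntn1 KO values lay inside the LysM Cre range, in which library 3 stood alone at the low end. The mean was 2744.5 ± 18.3 (SD, n = 3) in Ntn1 KO and 2674 ± 616 (SD, n = 4) in LysM Cre cells (log2 fold change 0.07, 95% interval -0.33 to 0.48, limma adjusted p = 0.799). Without LysM Cre library 3 the log2 fold change was -0.12, again not past the threshold (limma adjusted p = 0.209).

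Aim2 (ENSMUSG00000037860, chromosome 1, 173350879 to 173466040) had 1315, 1335.5 and 1369 normalized counts in Ntn1 KO libraries, against 1175, 1147, 1261 and 1195 in LysM Cre libraries. The Ntn1 KO values were all above the LysM Cre values, by a narrow margin to library 3. The log2 fold change of 0.17 (SE 0.06, 95% interval 0.03 to 0.30) missed the threshold once adjusted over all genes (limma adjusted p = 0.0819). The sensor transcripts thus held 1 gene that fell, Naip5, and 2 that did not pass.

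Pycard (ENSMUSG00000030793, chromosome 7, 127989708 to 127993867) had 772, 609 and 616 normalized counts in Ntn1 KO libraries, against 571, 649, 733 and 599.4 in LysM Cre libraries. The groups overlapped, and the log2 fold change was 0.06 (SE 0.11, limma adjusted p = 0.745). It was -0.05 without Ntn1 KO library 1, so no direction can be given.

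The inflammatory caspases lie next to each other on chromosome 9, Casp1 (ENSMUSG00000025888) at 5298517 to 5307265 and Casp4 (ENSMUSG00000033538) at 5308828 to 5336783. Casp1 had 1823, 1594 and 1784 normalized counts in Ntn1 KO libraries, against 1804, 1675, 1547 and 1659 in LysM Cre libraries. Its log2 fold change of 0.05 had an interval of -0.12 to 0.23 (limma adjusted p = 0.656), so a change beyond 1.17-fold upward lay outside it. Casp4 had 2165, 1828 and 1945 normalized counts in Ntn1 KO libraries, against 1861, 1673, 1447 and 1774 in LysM Cre libraries. The Casp4 groups overlapped only through Ntn1 KO library 2 and LysM Cre library 1. Casp4 had a log2 fold change of 0.23 (SE 0.10, 95% interval 0.01 to 0.46, limma adjusted p = 0.127). Within libraries, the log2 ratio of Casp4 over Casp1 was 0.25, 0.20 and 0.12 in Ntn1 KO, against 0.04, -0.00, -0.10 and 0.10 in LysM Cre. The ratio was higher in all Ntn1 KO libraries than in any LysM Cre library, with a difference in means of 0.18. A 2-sided exact permutation test on that ratio of normalized counts is limited by 35 splits to a smallest p of 0.0286, and it gave p = 0.0571, or 0.171 adjusted over the 3 ratios computed.

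Gsdmd (ENSMUSG00000022575, chromosome 15, 75862327 to 75867408) had 2498.5, 1669 and 1845 normalized counts in Ntn1 KO libraries, against 1776, 1910.0, 1823 and 1862 in LysM Cre libraries. Ntn1 KO library 1 lay above all others and library 2 below all others. Its log2 fold change was 0.10 (SE 0.12, limma adjusted p = 0.598), and -0.07 without Ntn1 KO library 1. That library also had the highest neutrophil and red cell marker sums, and their part in its Gsdmd value was not tested.

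Il1b (ENSMUSG00000027398, chromosome 2, 129364570 to 129371139), the most abundant of the 10, had 13325, 12324 and 13070 normalized counts in Ntn1 KO libraries, against 9852, 10062, 4670 and 12219 in LysM Cre libraries. The lowest Ntn1 KO library was only just above the highest LysM Cre library, and LysM Cre library 3 had less than any other. The mean was 12906 ± 520 (SD, n = 3) in Ntn1 KO and 9201 ± 3204 (SD, n = 4) in LysM Cre cells. The log2 fold change of 0.57 (SE 0.28, 95% interval -0.07 to 1.21) did not pass (limma adjusted p = 0.176), and without LysM Cre library 3 it was 0.28 (limma adjusted p = 0.106). An antisense transcript, Il1bos, overlaps the gene and averaged 45.1 in Ntn1 KO and 40.3 normalized counts in LysM Cre cells. The sources used here do not say whether counting used strand.

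Il1a (ENSMUSG00000027399, chromosome 2, 129299610 to 129309972) is the neighbour of Il1b and codes for the interleukin that acts without cleavage by caspase-1. It had 5157, 4918 and 5953 normalized counts in Ntn1 KO libraries, against 4600, 5785, 2889 and 4814 in LysM Cre libraries. The groups overlapped, with LysM Cre library 3 again the lowest, and the log2 fold change was 0.28 (SE 0.21, limma adjusted p = 0.357). The log2 ratio of Il1a over Il1b averaged -1.28 ± 0.12 (SD, n = 3) in Ntn1 KO and -0.98 ± 0.30 (SD, n = 4) in LysM Cre cells, a difference of -0.29 (2-sided exact permutation p = 0.171, adjusted 0.257).

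Il18 (ENSMUSG00000039217, chromosome 9, 50554827 to 50581840) was the most variable of the 10 among Ntn1 KO libraries. It had 237, 520.2 and 399 normalized counts in Ntn1 KO libraries, against 375, 308, 219 and 257 in LysM Cre libraries. Ntn1 KO library 1 lay within the LysM Cre range, and libraries 2 and 3 lay above it. For the groups as a whole the log2 fold change was 0.37 (SE 0.27, 95% interval -0.23 to 0.97, limma adjusted p = 0.348). It was 0.68 without Ntn1 KO library 1 (limma adjusted p = 0.0535) and 0.12 without Ntn1 KO library 2. Ntn1 KO library 2, the highest for Il18, also had the highest sum of resident alveolar macrophage markers (131975, of which Chil3 made up 105895). The part of these markers in the Il18 value was not tested. The log2 ratio of Il18 over Il1b averaged -5.13 ± 0.63 (SD, n = 3) in Ntn1 KO and -4.93 ± 0.49 (SD, n = 4) in LysM Cre cells (2-sided exact permutation p = 0.6), and the sign of the difference turned without Ntn1 KO library 1.

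Per kilobase of annotated exon, the order of mean levels in LysM Cre cells was Il1b, Il1a, Casp1, Gsdmd, Nlrp3, Casp4, Aim2, Il18, Naip5 and Pycard. Il1b had 6768 ± 273 (SD, n = 3) normalized counts per kb in Ntn1 KO and 4825 ± 1680.2 (SD, n = 4) in LysM Cre cells. At the low end, Naip5 had 132 ± 2.06 per kb in Ntn1 KO and 176 ± 9.08 in LysM Cre cells, and Pycard had 175 ± 24.2 per kb in Ntn1 KO and 168 ± 18.7 in LysM Cre cells. In Ntn1 KO cells Pycard therefore stood above Naip5, the only change in order. In LysM Cre libraries the ranges of neighbours in the order overlapped for Il1b and Il1a, Gsdmd and Nlrp3, Nlrp3 and Casp4, Aim2 and Il18, and Naip5 and Pycard.

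The 10 genes did not vary as 1 block across the 7 libraries. The log2 values of Il1a and Il1b had a Pearson r of 0.89, those of Nlrp3 and Il1a 0.87, and those of Nlrp3 and Il1b 0.85, pairs that share the low LysM Cre library 3. Casp1 and Casp4 had r = 0.82, and Casp4 and Il1b 0.86. The most negative values were those of Naip5 with Casp4 and with Aim2, both -0.81. Naip5 had r = -0.72 with Il1b, and Il18 had r = -0.69 with Pycard. The tested genes with the pattern most like Il1b were Fam53c (r = 0.97), Msl2 (0.97), Gpr132 (0.96), Pdrg1 (0.96) and Mgea5 (0.95). Those most like Casp1 were Arf3 (0.97), Tnfsf14 (0.95), Pilrb2 (0.95), Tmem150a (0.94) and Rad52 (0.94), and those most like Il18 were Ccl6 (1.00), Uhrf1 (0.99), Perp (0.98), Hnrnpf (0.98) and Pld3 (0.98). These values describe 7 libraries that share depth and group structure. The genes most alike were the highest among tested genes once clone-like, mitochondrial and duplicated symbols were left out.

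Other genes of the pathway were read from 5 lists with 59 tested genes, of which 11 rose and 6 fell (28.8%), with a median log2 fold change of 0.19. This share compares with 21.7% over all genes. Without Ntn1 KO library 2, 6 of the 59 were called higher, and without LysM Cre library 4, 7 were. With LysM Cre libraries 1 and 4 left out 4 were called higher, and with libraries 2 and 3 left out 6 were. Calls of higher genes over all genes tested fell in these fits too, from 1352 to 695 without Ntn1 KO library 2.

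Of 15 other sensors, 4 fell and 1 rose (33.3%, beside 21.7% over all genes), with a median of 0.12. Beside the 3 Naip paralogs, Nlrp1b had 160, 125 and 142 normalized counts in Ntn1 KO libraries, against 213, 278, 362 and 299.7 in LysM Cre libraries. The groups did not overlap, and the log2 fold change was -0.99 (limma adjusted p = 0.00569). Nlrp1b lies 2.75 Mb from Ntn1 on chromosome 11, where 29 of 122 tested genes within 5 Mb of Ntn1 passed (23.8%), 14 higher and 15 lower. Its neighbour Nlrp1a had a log2 fold change of -0.20 and did not pass (limma adjusted p = 0.386). Nlrc3, known as a brake on innate signalling, averaged 735 ± 26.1 in Ntn1 KO and 523 ± 97.9 in LysM Cre cells (log2 fold change 0.51, limma adjusted p = 0.0319). The Nlrc3 call was lost in 4 of the 7 fits that left out 1 library.

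**Figure D4:**
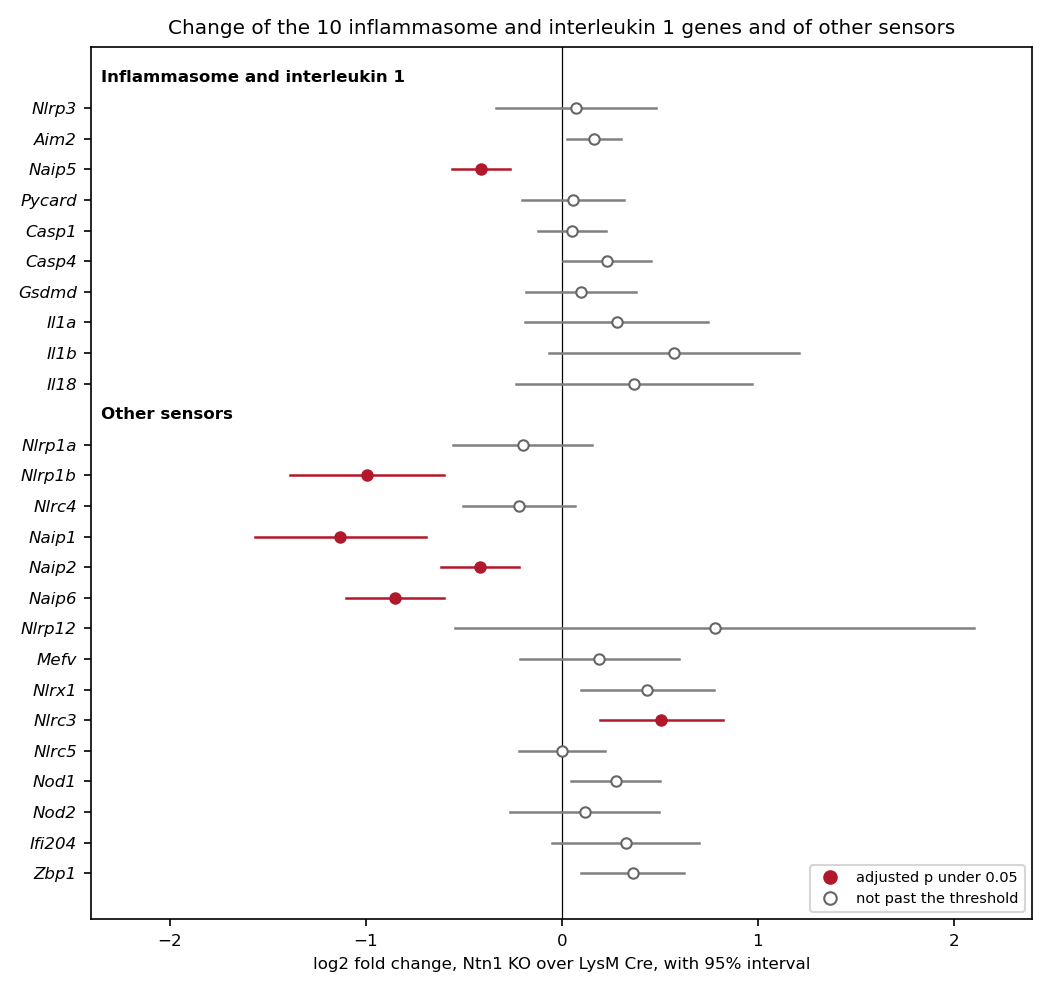
Log2 fold change, Ntn1 KO over LysM Cre, with 95% intervals, for the 10 genes and for the 15 other sensors tested; filled points passed a limma adjusted p of 0.05. Naip5, Naip1, Naip2, Naip6 and Nlrp1b lie below 0 and Nlrc3 above 0 among the filled points, while the intervals of Il1a, Il1b, Il18 and Nlrp3 cross 0.

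Among 12 activation partners, 3 rose and 1 fell (33.3%, beside 21.7% over all genes), with a median of 0.24. P2rx7, the channel through which extracellular ATP triggers NLRP3, had 351, 484 and 391 normalized counts in Ntn1 KO libraries, against 765, 675, 692 and 824 in LysM Cre libraries. No value overlapped between the groups, and the log2 fold change was -0.86 (limma adjusted p = 0.00231). Txnip, which binds thioredoxin and has been linked to NLRP3, had a log2 fold change of 0.70 (limma adjusted p = 0.0191). Panx1, a membrane channel, had one of 0.52 (limma adjusted p = 0.0191), and Gm12250, which codes for the GTPase IRGB10 that acts on bacterial membranes, one of 0.40 (limma adjusted p = 0.0217). The 3 rises were each lost without Ntn1 KO library 2 (limma adjusted p between 0.0558 and 0.0762), and those of Txnip and Gm12250 also without LysM Cre library 2 or 4.

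Among 12 linked caspases and cell death effectors, 2 rose and none fell (16.7%, beside 21.7% over all genes), with a median of 0.11. Of these, Casp8, which starts death receptor signalling, had a log2 fold change of 0.23 (limma adjusted p = 0.0355), lost in 5 of the 7 fits without 1 library. Of 6 inhibitors, Otulin, which removes linear ubiquitin chains, rose (log2 fold change 0.47, limma adjusted p = 0.0118) and the other 5 did not pass. This was 16.7% of the list, again below the share over all genes, and the list median was 0.22.

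Among 14 genes of interleukin 1 and 18 reception, 4 rose and 1 fell (35.7%, beside 21.7% over all genes), with a median of 0.18. Sigirr, a receptor of the interleukin 1 family that dampens signalling, averaged 414 ± 55.4 in Ntn1 KO and 137 ± 22.7 in LysM Cre cells (log2 fold change 1.59, limma adjusted p = 0.000652). Both chains of the interleukin 18 receptor rose. Il18rap averaged 4106 ± 23.5 in Ntn1 KO and 2301 ± 424 in LysM Cre cells (log2 fold change 0.85, limma adjusted p = 0.00402), and Il18r1 averaged 3153 ± 409 in Ntn1 KO and 1944 ± 272 in LysM Cre cells (0.70, limma adjusted p = 0.00678). Natural killer cells are known to carry this receptor, and their summed markers averaged 42815 in Ntn1 KO and 11638 normalized counts in LysM Cre cells. The part of these cells in the rise was not tested. Myd88, the adaptor of these receptors, rose (0.42, limma adjusted p = 0.0168), and Traf6, which acts downstream of it, fell (-0.25, limma adjusted p = 0.029), a call lost in 6 of the 7 fits without 1 library. The neutrophil list and this list share Il1r2, a decoy receptor. Nlrp6, Gsdma, Gsdmc, Pydc3 and Pydc4 were not analysed here, Gsdme was read under its older symbol Dfna5, and Nlrp10 was below the minimum for testing.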

How the data were processed

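mRNA of 7 BAL cell samples was sequenced (3 Ntn1 KO, 4 LysM Cre, grouped by genotype and title). The submitters' processing notes name GRCm38 (mm10), STAR 2.5.3a, cutadapt 1.15, DESeq2 and HTSeq. The authors deposited a signal column per library, read counts divided by a size factor, and, per the file headers, their base mean, log2 fold change with standard error, test statistic as a score, p-value and adjusted p-value. All columns had a sample or comparison in the labels or headers. Dividing a column by its smallest step gave whole numbers (100% within 0.01), taken as the reads, between 9903284 and 13353733 per library.

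limma 3.58.1 (R 4.3.3, eBayes with trend) was run on log2(normalized count + 1) for genes with a mean of at least 10, with Benjamini-Hochberg adjustment over all 12963 genes and a threshold of 0.05. Folds of low genes are understated on this scale. Ratios were compared by a 2-sided exact permutation test over 35 splits. Alternatives were TMM and library-total scaling, other pseudocounts and minimums, edgeR 4.0.16 (quasi-likelihood; 2862 genes called on the recovered reads) and DESeq2 1.42.0 (3025), the replicate number as a block, each library left out, and pairs of LysM Cre libraries left out. The fit was tested on simulated data. Replicates of a group differed beyond sampling noise (chi-square per gene 8.51 to 35.5).

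The 10 genes and all lists were chosen with earlier results of these data known. Named besides the 10 genes are Ntn1, Lyz2, up to 4 called genes per direction and list by smallest p, the 5 genes most like Il1b, Casp1 and Il18, and markers at or near 0. Of the genes this rule names, 2 are not reported here. Smn1, Nlrc4, Nlrp1a, Il1r2, the genes near Naip5 and, in the closing section, Irf8 were named after their values were seen. GENCODE annotation matched 99.8% of identifiers, and 21 symbols turned into dates were restored from the identifier. Promoter windows came from RefSeq (GRCm38.p6), where all 4 Naip genes matched by symbol. The sources used here do not give HTSeq's version or strand setting.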

Additional observations from a re-analysis of the deposited data

Results flagged for a closer look

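In the LysM Cre group, 1 library lay far from the other 3 for 2 genes, both times library 3 at the low end. Nlrp3 had 1754 normalized counts there, against 2920.5 to 3058 in the other LysM Cre libraries, and this gap took up 0.894 of the group's range which is past Dixon's 95% limit for 4 samples. Nlrc4, the partner of the NAIP proteins, had 409 there, against 520.4 to 538 in the other LysM Cre libraries, a gap of 0.862 of the range. The Ntn1 KO values were 2731 to 2765 for Nlrp3 and 366 to 477 for Nlrc4. Chance puts about 1 in 20 such groups past the limit, and 16 genes were examined in this group. The cause was not tested.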

How the results depend on the processing

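Of the 19 alternatives, 1 ended the call on Naip5. With the replicate number of the titles as a block, its log2 fold change was -0.42 (limma adjusted p = 0.0523), so 0 of the 10 genes was called. Same-numbered libraries did not deviate together (correlations -0.23, -0.03 and -0.19 by title number, -0.08, -0.29 and 0.08 by description number). The labels do not say that the numbers pair the libraries. Deviations from a group mean of 3 or 4 libraries depend on each other, so these correlations cannot exclude pairing. The title block left 425 genes higher and 371 lower, and 3 and 2 genes of the pathway lists, and the block by description number 609 higher and 606 lower. Without LysM Cre libraries 1 and 4, 624 genes were higher and 567 lower (4 of the pathway lists higher), and without libraries 2 and 3, 622 and 620 (6 higher). Leaving out 1 library gave 695 to 1172 higher and 820 to 1303 lower genes, lowest without Ntn1 KO library 2, and 6 to 11 pathway genes higher. The log2 fold change turned to -0.12 for Nlrp3 without LysM Cre library 3 and also without libraries 2 and 3, to -0.060 for Pycard without LysM Cre libraries 1 and 4, and, without Ntn1 KO library 1, to -0.052 for Pycard and -0.070 for Gsdmd. With 1 library left out these 3 ranged from -0.12 to 0.15, -0.052 to 0.13 and -0.070 to 0.22 for Nlrp3, Pycard and Gsdmd. None of these passed the test. The difference in the log2 ratio of Il18 over Il1b turned to 0.0062 without LysM Cre libraries 2 and 3, and ranged from -0.49 to 0.13 when 1 library was left out. DESeq2 and library-total scaling each called 3 other sensors and 2 inhibitors higher. The causes were not tested beyond there being fewer libraries in some fits. With 3 libraries against 4, intervals of Il1a, Il1b and Il18 reach beyond 1.5-fold.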

Other observations

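Irf8, a transcription factor known in mouse macrophages to activate the Naip genes, was looked up after the fall of the Naip paralogs had been seen. It averaged 6410.1 ± 344 (SD, n = 3) normalized counts in Ntn1 KO and 3404 ± 282 (SD, n = 4) in LysM Cre cells, a log2 fold change of 0.92 (limma adjusted p = 0.00065). It was higher in Ntn1 KO libraries, while the 4 Naip paralogs were lower, and it was higher in every Ntn1 KO library than in any LysM Cre library. Natural killer cell markers were higher in the same libraries, and their part in the Irf8 value was not tested.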
